A study of Rattus norvegicus with 22 samples.

Results

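The 36 genes described here mark the blood vessels and the connective tissue of the brain, and were followed in RNA from the nucleus accumbens (NAc) of rats that had consumed EtOH. They were taken by exact symbol from a list of 13 genes of endothelial cells, 7 genes of mural cells (pericytes and smooth muscle cells) and 16 genes of the extracellular matrix and its fibroblasts, out of 17310 genes in the count files. Col3a1, a fibrillar collagen, was put on the list with its difference in experiment 2 already known. The differences of the listed genes in experiment 2 are therefore described without a test. Correlations between genes over rats, with the group means removed, were tested in both experiments, but those of Col3a1 are given without a test. The rule did not use experiment 1, which was tested, but its earlier results were known as well.

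The study sequenced polyA-selected NAc RNA from 22 male outbred Wistar rats, 1 library per rat. In experiment 1, 5 EtOH rats had a bottle of 6% v/v EtOH beside water for 8 weeks, and 5 water rats had water only. In experiment 2, all 12 rats chose between 6% v/v EtOH and water during 4 weeks, then entered a gavage period of 3 weeks, and had the EtOH bottle for a further 2 weeks. In the gavage period 6 were gavaged 2 times a day with EtOH (2.5 g/kg, 30% v/v) and 6 with water. The water gavage rats were therefore also EtOH drinkers, and no group of experiment 2 was free of EtOH. The core and shell of the NAc were dissected together. Rats are named by their group and the replicate number of the labels.

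Brain capillaries are tubes of endothelial cells sealed by tight junctions, which form the blood-brain barrier and carry transporters for glucose and pumps that return drugs to the blood. Pericytes wrap the capillaries, smooth muscle cells wrap the larger vessels and hold them contracted, and both lie on a basement membrane of collagen IV, laminin and fibronectin. Fibrillar collagens and small leucine-rich proteoglycans are made mainly by fibroblasts, which in the brain are sparse and sit in the meninges and around larger vessels. The tissue was sequenced as a whole, so fewer cells of a type and less RNA per cell cannot be told apart.

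Reads assigned to genes ranged from 2962291 to 5247386 per rat in experiment 1 and from 6713617 to 8765472 in experiment 2, and levels are given as CPM, the count of a gene scaled to a fixed number of gene reads in each rat (TMM scaling). Strand was kept in the libraries of experiment 2 only, so no level was compared between the experiments. The 9 striatal projection neuron markers, among them Drd1, Drd2 and Ppp1r1b, summed to at least 2626 CPM in every rat. The choroid plexus markers were near absent: Ttr lay between 0 and 8.52 CPM and Otx2 was at 0 in all 22 rats. The 3 libraries with the largest share of reads outside annotated genes were EtOH gavage rat 1 (57.98%), EtOH gavage rat 2 (56.37%) and water gavage rat 1 (54.5%), against 46.09% as the lowest share of experiment 2. These 3 rats stood apart for several vascular genes, as given below.

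Of the 36 genes, 34 were listed in the count files, and Col4a2 and Col6a1 were not. Col1a2 and Ogn were listed with 0 reads in all 22 rats, which leaves 32 genes with reads. A gene was tested if its mean normalised count exceeded the median over all listed genes, which 8655 genes did in each experiment. That filter kept 26 of the 36 in experiment 1 and 25 in experiment 2, 22 of them in both. In experiment 1 it removed Emcn, Kcnj8, Acta2, Col3a1, Dcn and Lum, and in experiment 2 Kcnj8, Acta2, Col1a1, Col5a1, Col6a2, Lum and Igfbp2. Since 1 very high rat can lift a gene over such a filter, the counts below describe the genes that passed it and do not stand for the whole list.

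**Figure D1:**
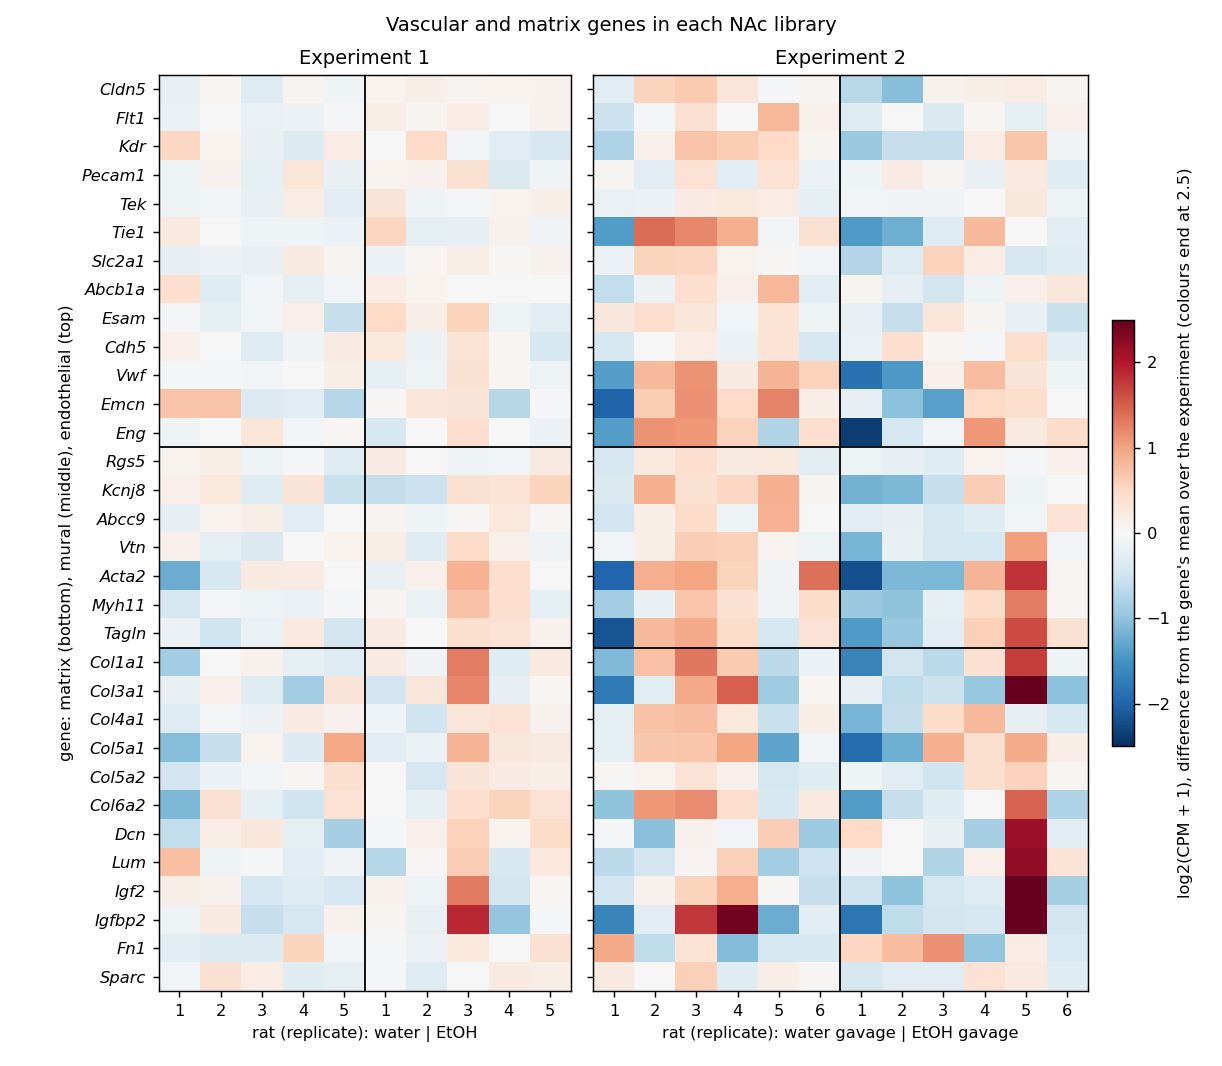
Level of the 32 genes with reads (rows, in the order endothelial, mural, matrix) in each rat (columns), as the log2(CPM + 1) difference from the gene's mean over the rats of that experiment, with red for higher and blue for lower and colours ending at 2.5. EtOH gavage rat 5 and, less, EtOH rat 3 are red over most fibrillar collagen and proteoglycan genes, and EtOH gavage rats 1 and 2 and water gavage rat 1 are blue over Tie1, Vwf, Myh11 and Tagln.

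Experiment 1 addressed voluntary drinking. By the quasi-likelihood test of edgeR, with p adjusted after Benjamini and Hochberg to an FDR, 0 vascular or matrix genes differed between EtOH and water rats at an FDR under 0.05, and of all 8655 genes tested 0% did. At an unadjusted p under 0.05 (5.58% of all genes tested), 5 of the 26 genes had higher estimates in EtOH rats and 0 had lower ones, where 3% and 2.58% of all genes tested did. DESeq2 with default settings also gave 0 genes under the FDR threshold and 5 at an unadjusted p under 0.05. The estimate lay above 0 for 24 of the 26 genes (49.5% of all genes tested), with a median log2 difference of 0.14 beside 0 for all genes. Without EtOH rat 3 it lay above 0 for 19 of 26, with a median of 0.09 and 3 genes at an unadjusted p under 0.05. None of the tested markers of other cell types reached an FDR under 0.05. Their estimates lay away from 0 for some cell types and near 0 for others. The 5 neuroblast markers, Dcx and Dlx1 among them, summed to 205.2 to 273.1 CPM in water rats and to 275.8 to 384.2 CPM in EtOH rats. The 5 ependyma markers summed to 16.57 to 60.61 and 43.16 to 72.85 CPM, and of the 9 striatal projection neuron markers 8 were below 0, with a median log2 difference of -0.27. The median was 0.03 for astrocyte, 0.02 for oligodendrocyte and 0.01 for microglia markers, and 0.25 for the 3 cortical neuron markers tested. The part of these cell types in the vascular values was not tested. No gene of the list had groups that did not overlap, which 0.427% of all genes did towards higher and 0.404% towards lower values.

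Among the endothelial genes, Flt1 and Kdr encode the receptors for VEGF. Flt1 was at 91.3, 102.8, 90.82, 91.67 and 99.16 CPM in the 5 water rats and at 114.6, 107.1, 116.2, 102.1 and 109.9 CPM in the 5 EtOH rats. Only EtOH rat 4 fell below the highest water rat. The log2 difference of Flt1 was 0.21 (SE 0.07, n = 5 per group), with an FDR of 0.823 in the edgeR test (unadjusted 0.00673). Leaving out any 1 rat left it between 0.19 and 0.24. The log2 difference of Kdr was -0.10 (SE 0.19), and between -0.27 and 0.03 with 1 rat left out, with 17.38 to 32.46 CPM in water rats and 16.64 to 31.65 CPM in EtOH rats.

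Claudin 5, the product of Cldn5 and the main tight junction protein of brain endothelium, was the other endothelial gene with a p under 0.05. Its level was 63.57, 74.59, 57.9, 76.34 and 67.51 CPM in water rats and 77.56, 80.16, 75.55, 77.39 and 77.73 CPM in EtOH rats. The EtOH rats were close together and the water rats were spread below them, with an overlap of water rat 4 and EtOH rat 3. The log2 difference of Cldn5 was 0.20 (SE 0.08), with an FDR of 0.866 in the edgeR test (unadjusted 0.0275). The junction protein Esam had a log2 difference of 0.38 (SE 0.19) and an FDR of 0.866, and the angiopoietin receptor Tek one of 0.18 (SE 0.11) and an FDR of 0.898. The other tested endothelial genes, which were the adhesion molecules Pecam1 and Cdh5, the Tek partner Tie1, the glucose transporter Slc2a1, the drug efflux pump Abcb1a, the clotting glycoprotein Vwf and the TGF-beta co-receptor Eng, lay between -0.05 and 0.10. Over the 12 endothelial genes tested, the median was 0.08.

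Of the mural genes tested, the smooth muscle genes Tagln and Myh11 had the largest estimates. The 8 other mural genes tested outside the list, given below, had a median of -0.01 and a largest estimate of 0.15. Tagln, which encodes an actin-binding protein of smooth muscle, was at 13.86, 10.66, 13.62, 18.4 and 10.93 CPM in water rats and at 17.87, 15.31, 20.67, 20.21 and 16.64 CPM in EtOH rats. Every EtOH rat was above 4 of the 5 water rats, and water rat 4 was above EtOH rats 1, 2 and 5. Its log2 difference was 0.45 (SE 0.17), with an FDR of 0.861 in the edgeR test (unadjusted 0.0159), and between 0.38 and 0.57 when any 1 rat was left out. Myh11, the smooth muscle myosin heavy chain, had 24.01 to 32.61 CPM in water rats and 27.82 to 55.34 CPM in EtOH rats. Its log2 difference was 0.37 (SE 0.17), with an FDR of 0.866 in the edgeR test. Its unadjusted p lay at the threshold, 0.05 when rounded. Without EtOH rat 3 the difference of Myh11 was 0.19. The pericyte genes Rgs5, a regulator of G protein signalling, and Abcc9, a subunit of the ATP-sensitive potassium channel, both had a log2 difference of 0.09 (SE 0.11). Vtn, which encodes vitronectin, had 0.17 (SE 0.15), and 0.05 without EtOH rat 3. The smooth muscle actin Acta2, which was under the filter, had 3.719 to 12.11 CPM in water rats and 8.767 to 19.29 CPM in EtOH rats, and Kcnj8, the pore of the same potassium channel, had 3.836 to 7.838 and 3.709 to 9.465 CPM.

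The 3 largest estimates among the tested genes of the list were those of the matrix genes Igfbp2, Col1a1 and Igf2. All of them rested on EtOH rat 3. Col1a1, which encodes a chain of collagen I, was at 9.13, 17.32, 18.73, 14.65 and 13.62 CPM in water rats and at 20.23, 16.34, 43.4, 13.83 and 20.94 CPM in EtOH rats. EtOH rat 3 stood alone at the top, and EtOH rats 2 and 4 were within the range of the water rats. The log2 difference was 0.64 (SE 0.28), with an FDR of 0.866 in the edgeR test (unadjusted 0.0372), and 0.25 without EtOH rat 3. Igf2, a growth factor that brain fibroblasts release, was at 123.1 CPM in EtOH rat 3 and at 35.9 to 53.28 CPM in the other EtOH rats, against 36.83 to 54.44 CPM in water rats. Its log2 difference of 0.51 (SE 0.27) was 0.08 without that rat. Igfbp2, an IGF-binding protein, was at 39.04 CPM in EtOH rat 3 and at 4.521 to 10.45 CPM in the other EtOH rats, against 6.244 to 11.72 CPM in water rats. Its log2 difference of 0.72 (SE 0.45) turned to -0.14 without that rat. Igfbp2 passed the filter narrowly, with a mean normalised count of 43.95 against the median of 43.64, and EtOH rat 3 held its highest level.

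Col1a1, Igf2 and Igfbp2 were the 3 genes of the list with a log2 difference above 0.5 (0.647% of all genes tested), and 0 were below -0.5 (0.266%). Without EtOH rat 3 none was above 0.5, and the median of the 9 matrix genes tested went from 0.22 to 0.03. Without water rat 1, 2 or 5 that median was 0.12, 0.11 or 0.45. When all 12 matrix genes with reads were fitted without the filter, 10 were above and 2 below 0 with a median of 0.29. The same fit without EtOH rat 3 gave 9 above and 3 below 0, with a median of 0.04. The remaining matrix genes tested had log2 differences from 0.00 (SE 0.12) for Sparc, a matricellular protein, to 0.36 (SE 0.26) for Col6a2, a chain of collagen VI. In between were Col4a1, the basement membrane collagen, with 0.10 (SE 0.14), Col5a2 with 0.10 (SE 0.15), Col5a1 with 0.22 (SE 0.33) and fibronectin, Fn1, with 0.17 (SE 0.16). Col5a1 was at -0.01 without EtOH rat 3 and at 0.68 without water rat 5, and Fn1 at 0.36 without water rat 4. Of the genes under the filter, Col3a1 was at 8.791, 11.19, 8.136, 5.112 and 13.04 CPM in water rats and at 7.081, 12.71, 25.26, 8.776 and 10.61 CPM in EtOH rats, so again only EtOH rat 3 was outside the range of the water rats. Decorin, Dcn, had 4.22 to 10.22 and 8.093 to 12.86 CPM, and lumican, Lum, 4.43 to 10.14 and 3.035 to 9.185 CPM.

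EtOH rat 3 was the highest of the 10 rats for 5 of the 12 matrix genes with reads, for 4 of the 7 mural genes (Vtn, Acta2, Myh11 and Tagln) and for 6 of the 13 endothelial genes (Flt1, Pecam1, Esam, Cdh5, Vwf and Eng). Its mean log2 deviation was 0.75 over the tested matrix genes, 0.31 over the mural and 0.18 over the endothelial genes. It was also highest for meningeal and perivascular fibroblast genes outside the list. Ptgds, a prostaglandin D synthase counted among these genes, was at 369.9 CPM there and at 136.5 CPM or less in the other EtOH rats. Aldh1a2, the enzyme that makes retinoic acid in meningeal fibroblasts, was at 25.26 CPM against 7.782 CPM or less. Of the 30 other meningeal and perivascular fibroblast genes with reads, 16 were highest in this rat, and Omd, Aspn and Mfap4 were at 0 in all 10. The list summed to 918.5 CPM in EtOH rat 3, of which Ptgds alone held 369.9 CPM. It summed to 451.9 to 549.3 CPM in the other EtOH rats and to 421.2 to 634.1 CPM in water rats. The share of all genes that were highest in this rat was not determined, so these counts cannot be called particular to vessels or fibroblasts. The part of meningeal or perivascular tissue in the difference of the matrix genes was not tested.

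**Figure D2:**
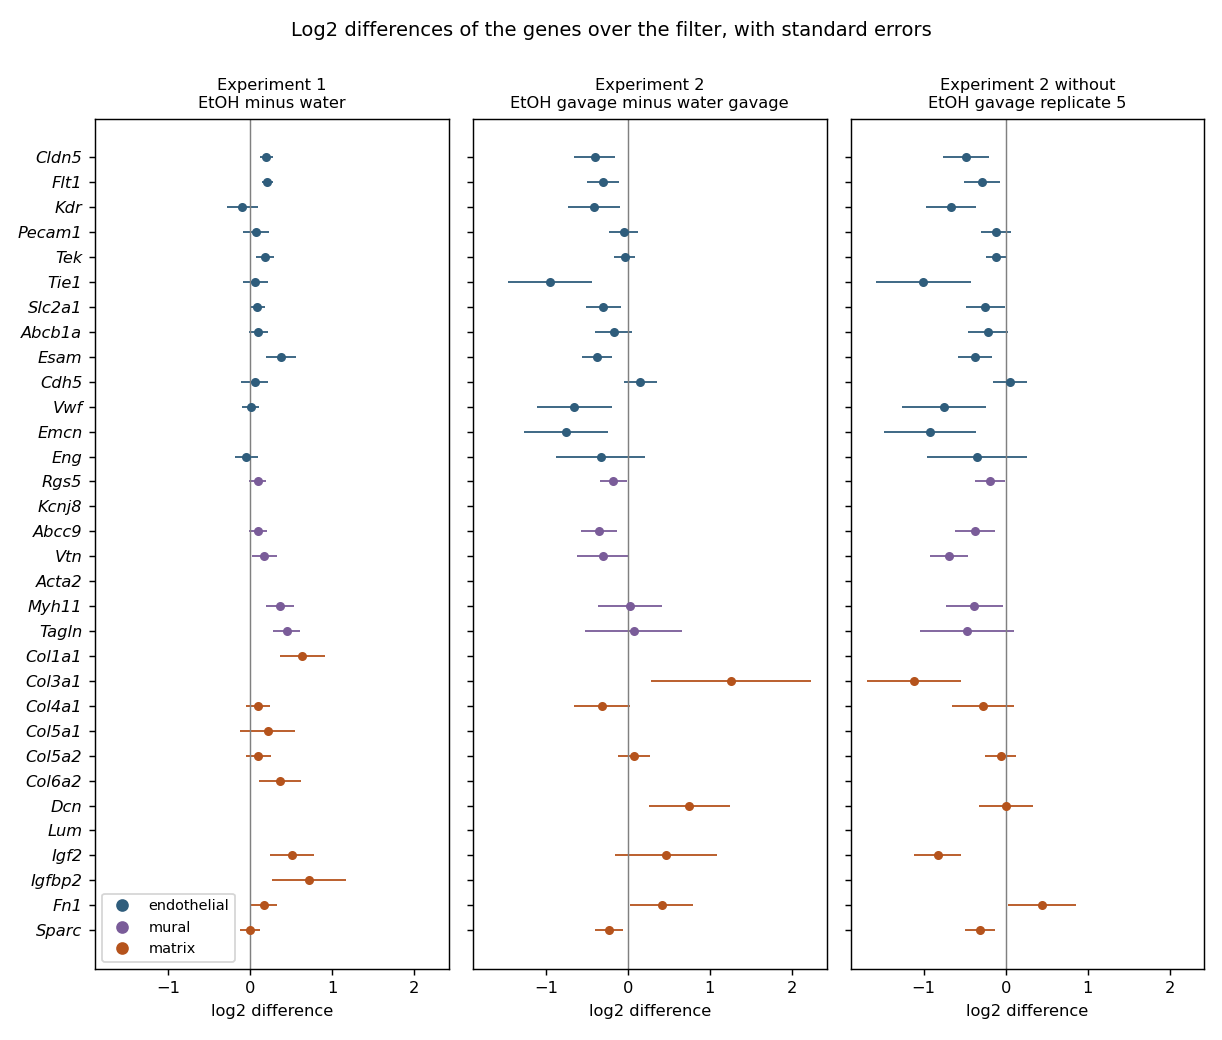
Log2 difference with its standard error for each gene over the filter (rows) in experiment 1 (EtOH minus water), in experiment 2 (EtOH gavage minus water gavage) and in experiment 2 without EtOH gavage rat 5, with endothelial genes in blue, mural genes in purple and matrix genes in orange. Col3a1 is at 1.26 in the middle panel and at -1.12 in the right one, and 12 of the 13 endothelial genes are below 0 in both.

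Genes of the same pathways outside the list gave a mixed picture in experiment 1, with 0 at an FDR under 0.05 in the edgeR test and in DESeq2. At an unadjusted p under 0.05 there were 2 genes each among the fibroblast and the signalling genes, 1 each among the endothelial, basement membrane and collagen processing genes and 0 among the mural genes. Of 13 other endothelial genes tested, 5 were higher and 8 lower, with a median log2 difference of -0.04, and the one with the lowest p was Podxl, a sialomucin, at 0.19 (SE 0.07, FDR 0.861). Of 8 other mural genes 4 were higher and 4 lower, led by Cspg4, the pericyte proteoglycan NG2, at 0.15 (SE 0.11). Of 9 other meningeal and perivascular fibroblast genes 7 were higher and 2 lower, with a median of 0.30. The lowest p among these belonged to Fmod, a collagen-binding proteoglycan, with 9.137 ± 3.211 CPM in water rats and 19.13 ± 8.84 CPM in EtOH rats (SD, n = 5) and a log2 difference of 1.03 (SE 0.29, FDR 0.705 in the edgeR test, unadjusted 0.00252). Fmod in the EtOH rats was at 34.67 CPM in EtOH rat 3 and at 13.49 to 17.78 CPM in the others, which were all above the highest water rat at 12.66 CPM.

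For basement membrane genes 4 of 6 were higher, and the lowest p was on the lower side, for Col18a1 at -0.45 (SE 0.18, FDR 0.866 in the edgeR test). For genes of collagen processing 8 of 11 were higher, led by the lysyl hydroxylase Plod1 at 0.34 (SE 0.13, FDR 0.861). For the ligands, receptors and targets of VEGF, angiopoietin and TGF-beta signalling 5 of 11 were higher, and the lowest p was that of Nrp2, a co-receptor, at -0.46 (SE 0.17, FDR 0.861).

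Experiment 2 addressed forced EtOH on top of voluntary drinking. As a description, the endothelial genes had lower estimates in EtOH gavage rats, with 1 of 13 estimates above 0 (50.1% of all genes tested), 12 below 0 and a median log2 difference of -0.33 beside 0 for all genes. Markers of some other cell types had estimates of like size. The median was -0.42 for the 6 microglia markers (5 below 0), -0.29 for the 6 oligodendrocyte markers (4 below 0) and -0.28 for the 9 striatal projection neuron markers (6 below 0). Those of other cell types did not, with medians of 0.03 for astrocyte, -0.01 for cortical neuron and 0.36 for neuroblast markers. The part of any of these cell types in the vascular values was not tested. The matrix genes that passed the filter had a median of 0.41, which came from 1 rat. The mural genes had 3 of 5 below 0 and a median of -0.17, and 5 of 5 below 0 and a median of -0.38 without EtOH gavage rat 5. Log2 differences below -0.5 were found for 3 genes of the list, where 7.98% of all genes tested were below -0.5. Above 0.5 were 2 genes, Col3a1 and Dcn, where 1.14% of all genes tested were. Col3a1 was put on the list with this difference known, and both genes had 1 very high rat. The count above 0.5 can therefore not be weighed against that share. No gene of the list had groups that did not overlap, and over all genes tested 0% did towards higher and 0.0116% towards lower values. With edgeR 0 of the 8655 genes of experiment 2 reached an FDR under 0.05, and at an unadjusted p under 0.05 there were 115 of them. Without the filter edgeR had 286 of 14121 genes at that level and DESeq2 315 of 14110, and 0 at an FDR under 0.05.

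The endothelial genes with the lowest estimates were Tie1, Emcn and Vwf. Tie1 had a lowest, median and highest level of 2.641, 14.09 and 24.08 CPM in the 6 water gavage rats and of 2.589, 6.811 and 15.65 CPM in the 6 EtOH gavage rats, with a log2 difference of -0.95 (SE 0.51). Emcn, an endothelial sialomucin, had 1.585, 14.13 and 23.29 CPM and 3.017, 8.636 and 13.52 CPM, with -0.75 (SE 0.51). Vwf had 21.92, 95.64 and 128.6 CPM and 15.39, 59.32 and 101.2 CPM, with -0.65 (SE 0.46). For all 3 genes the groups overlapped over most of their range, and water gavage rat 1 was among the 3 lowest rats of the 12. Cldn5 had 19.02, 26.42 and 36.6 CPM after water gavage and 10.54, 24.4 and 26.16 CPM after EtOH gavage, with a log2 difference of -0.40 (SE 0.25).

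The remaining endothelial genes lay between -0.41 (SE 0.32) for Kdr and 0.15 (SE 0.20) for Cdh5, the VE-cadherin of endothelial junctions, which was the only one above 0. Flt1 and Slc2a1 were both at -0.30, with SE 0.20 and 0.22, Flt1 was at -0.14 without water gavage rat 5, and Esam was at -0.38 (SE 0.19). Flt1 and Cldn5, the 2 endothelial genes with the lowest p in experiment 1, thus had estimates above 0 in that experiment and below 0 here. The difference between the experiments was not tested. Eng, at -0.33 (SE 0.55), was at -0.65 without EtOH gavage rat 4 and at -0.10 without EtOH gavage rat 1. Without EtOH gavage rat 5 the endothelial median was -0.35, and Kdr, for which that rat had 32.31 CPM and the other EtOH gavage rats at most 22.2 CPM, went to -0.67.

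The 3 libraries with the largest share of reads outside genes had low levels of many genes. In EtOH gavage rats 1 and 2 and water gavage rat 1, 4 of the 13 endothelial genes (Cldn5, Kdr, Tie1 and Vwf) and 2 of the 5 tested mural genes (Myh11 and Tagln) were lower than in all 9 other rats of experiment 2. Of all genes tested 19.3% were, so these counts are not particular to vessels. Vwf was at 15.39 to 21.92 CPM in these 3 rats and at 54.15 to 128.6 CPM in the other 9. Tie1 was at 2.589 to 3.101 CPM in the 3 and at 6.663 to 24.08 CPM in the 9, and Tagln at 1.585 to 4.962 CPM in the 3 and 7.442 to 34.6 CPM in the 9. Other vascular genes did not separate the 3 rats, among them Pecam1 with 18.84 to 23.57 CPM in the 3 and 16.2 to 26.46 CPM in the 9, and Fn1 lay in the upper part of its range in them, with 240.2 to 324.3 CPM in the 3 and 78.63 to 371 CPM in the 9. With the share of reads outside genes as a covariate the endothelial median was -0.11, and 0 genes of the list were below -0.5. With the 3 rats left out it was -0.26 and 2 genes were below -0.5. The part of this share in the differences was not tested further.

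The direction of the mural genes in experiment 2 depended on single rats. All 5 were below 0 without EtOH gavage rat 5, water gavage rat 1 or water gavage rat 5, and 3 of 5 with all rats. Tagln had a lowest, median and highest level of 1.585, 14.3 and 21.09 CPM after water gavage and of 3.308, 11.23 and 34.6 CPM after EtOH gavage, with a log2 difference of 0.07 (SE 0.59). Myh11 had 14.66, 31.05 and 45.09 CPM and 13.33, 26.18 and 68.85 CPM, with 0.02 (SE 0.39). In both genes EtOH gavage rat 5 was the highest of the 12 rats. Without it the differences were -0.47 for Tagln and -0.38 for Myh11, and that of Vtn went from -0.30 to -0.69. Rgs5 was at -0.17 (SE 0.16) and Abcc9 at -0.35 (SE 0.22).

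Acta2, below the filter, had 0.6603, 10.07 and 16.15 CPM after water gavage and 0.4314, 3.918 and 21.94 CPM after EtOH gavage. Kcnj8 had 2.773, 5.608 and 8.028 CPM after water gavage and 1.15, 2.88 and 6.404 CPM after EtOH gavage. The upstream sequence is shown here for 3 genes that were highest in EtOH gavage rat 5, and a link between sequence and level was not tested. Besides Acta2 these were Vtn, at 61.49 CPM in that rat, and Igfbp2, at 30.38 CPM. The other EtOH gavage rats had 12.66 to 28.09 CPM for Vtn and 0.1438 to 1.992 CPM for Igfbp2. Water gavage rats had 26.98 to 45.75 and 0.2641 to 20.22 CPM. RefSeq windows of the GRCr8 assembly were held for 24 of the 36 genes, and the 250 bases before the annotated start of transcription are printed, 5′ to 3′ on the strand of the gene. Capitals mark matches on either strand to TATATAA, to GGGCGG or to a CArG box, the element bound by serum response factor, with 1 C or G allowed among its 6 central A or T bases. TATAAA and CCAAT were searched as well and had no match in these 3 windows, and the marked matches do not overlap. The Acta2 window is chr1:241172504-241172753 on the minus strand, the Vtn window chr10:63892532-63892781 on the plus strand and the Igfbp2 window chr9:81864561-81864810 on the plus strand.
Acta2: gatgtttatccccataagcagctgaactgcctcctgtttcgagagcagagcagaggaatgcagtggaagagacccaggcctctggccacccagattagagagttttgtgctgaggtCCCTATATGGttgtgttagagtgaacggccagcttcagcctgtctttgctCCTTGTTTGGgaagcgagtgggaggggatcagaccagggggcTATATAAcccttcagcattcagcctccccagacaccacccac
Vtn: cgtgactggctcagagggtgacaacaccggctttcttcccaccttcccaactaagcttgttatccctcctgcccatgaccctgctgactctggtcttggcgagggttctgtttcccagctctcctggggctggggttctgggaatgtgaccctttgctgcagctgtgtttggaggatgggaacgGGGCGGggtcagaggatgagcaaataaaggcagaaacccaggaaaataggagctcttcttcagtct
Igfbp2: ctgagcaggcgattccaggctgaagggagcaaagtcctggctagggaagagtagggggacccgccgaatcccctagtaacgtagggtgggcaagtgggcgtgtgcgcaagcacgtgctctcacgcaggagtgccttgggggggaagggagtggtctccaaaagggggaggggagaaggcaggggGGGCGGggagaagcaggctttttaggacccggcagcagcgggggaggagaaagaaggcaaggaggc

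The Acta2 window held CCCTATATGG, whose bases lie 134 to 125 before the start, and CCTTGTTTGG at 84 to 75, both with 1 central base outside A and T. With at most 1 such base allowed, at least 1 match was found in 8.08% of all 33469 upstream windows and at least 2 in 0.693%. Of the 25 windows of the genes studied here, 4 held one, in Acta2, Igf2, Kdr and Tie1. That of Igf2, CCAAATTTGG, had only A and T in its centre, a match found in 1.5% of all windows. TATATAA was found in 3.42% of all windows, and in Acta2 it lay 42 to 36 bases before the start. GGGCGG was found in 30.5% of all windows and in 15 of the 25 windows of the genes studied here. It lay 66 to 61 bases before the start in both Vtn and Igfbp2. These are matches of letters and were not tested for binding, and Myh11 and Tagln had no window to compare.

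The matrix genes of experiment 2 were dominated by EtOH gavage rat 5. Col3a1 was at 1.585, 6.345, 15.91, 23.77, 3.721 and 8.073 CPM in the 6 water gavage rats and at 6.615, 4.652, 5.029, 3.558, 118.8 and 3.29 CPM in the 6 EtOH gavage rats. The other 5 EtOH gavage rats were all below water gavage rats 3, 4 and 6, and within the range of the water gavage group. The log2 difference of 1.26 (SE 0.97), by which the gene was chosen, turned to -1.12 (SE 0.57) without EtOH gavage rat 5. Igf2 was at 16.48, 26.35 and 48.12 CPM (lowest, median and highest) after water gavage and at 12.09, 17.74 and 157.1 CPM after EtOH gavage, and the next highest EtOH gavage rat had 20.07 CPM. Its log2 difference went from 0.47 (SE 0.62) to -0.83 (SE 0.29) without rat 5.

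Decorin and lumican, proteoglycans that bind collagen fibrils, had the same high rat, and their other EtOH gavage rats overlapped the water gavage rats. Dcn was at 8.287, 17.6 and 28.39 CPM after water gavage and at 9.819, 16.98 and 83.68 CPM after EtOH gavage, and its log2 difference went from 0.75 (SE 0.49) to 0.01 without rat 5. Lum had 2.481, 3.527 and 8.631 CPM and 2.766, 5.702 and 28.46 CPM. Against the median of the other 5 EtOH gavage rats, rat 5 was 25.5-fold higher for Col3a1, 16.1-fold for Igfbp2 and 10.9-fold for Acta2. It was 9.1-fold higher for Igf2, 5.95-fold for Col1a1 and 5.24-fold for both Dcn and Lum. The ratios of Igfbp2 and Acta2 rest on low medians of 1.886 and 2.016 CPM. Water gavage rats reached 20.22 and 16.15 CPM for these 2 genes, and rat 5 had 30.38 and 21.94 CPM. Of the 12 matrix genes with reads it was the highest of the 12 rats for 8, which were Col1a1, Col3a1, Col5a2, Col6a2, Dcn, Lum, Igf2 and Igfbp2, and of the 7 mural genes for 4. It was also the highest for the endothelial genes Tek and Cdh5. How many of all genes were highest in this rat was not determined, so these counts cannot be called particular to the list.

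Among the matrix genes, Col4a1, Fn1 and Sparc did not share that peak. Vtn, a glycoprotein gene counted here as mural, was highest in EtOH gavage rat 5. In EtOH gavage rat 5, Col4a1 was at 26.41 CPM and the other EtOH gavage rats at 13.09 to 54.51 CPM. Fn1 was at 192.4 CPM in that rat against 84.68 to 371 CPM in the others, and Sparc at 673.4 CPM against 423.7 to 728.3 CPM. The log2 differences of these 3 genes were -0.31 (SE 0.34) for Col4a1, 0.41 (SE 0.38) for Fn1 and -0.23 (SE 0.18) for Sparc, and Fn1 was at 0.19 without EtOH gavage rat 3 and at 0.73 without water gavage rat 1. Col5a2 was at 0.08 (SE 0.20). The genes under the filter, Col1a1, Col5a1 and Col6a2, had medians of 5.198, 6.595 and 5.271 CPM after water gavage and of 3.153, 6.262 and 2.672 CPM after EtOH gavage.

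Over the 7 matrix genes tested, 5 estimates were above 0 with all rats and 2 without EtOH gavage rat 5, and the median went from 0.41 to -0.28. Without EtOH gavage rat 3 or water gavage rat 4 that median was 0.19 or 0.27. In the list as a whole, genes above 0.5 went from 2 to 0 and genes below -0.5 from 3 to 7. When all 12 matrix genes with reads were fitted without the filter, 7 were above and 5 below 0 with a median of 0.06, and 3 and 9 without EtOH gavage rat 5 with a median of -0.30. The sign of the matrix difference in experiment 2 therefore depended on 1 library. Water gavage rats 3 and 4 came next in the level of the tested matrix genes, with mean log2 deviations of 0.55 and 0.21 against 1.37 for EtOH gavage rat 5.

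**Figure D3:**
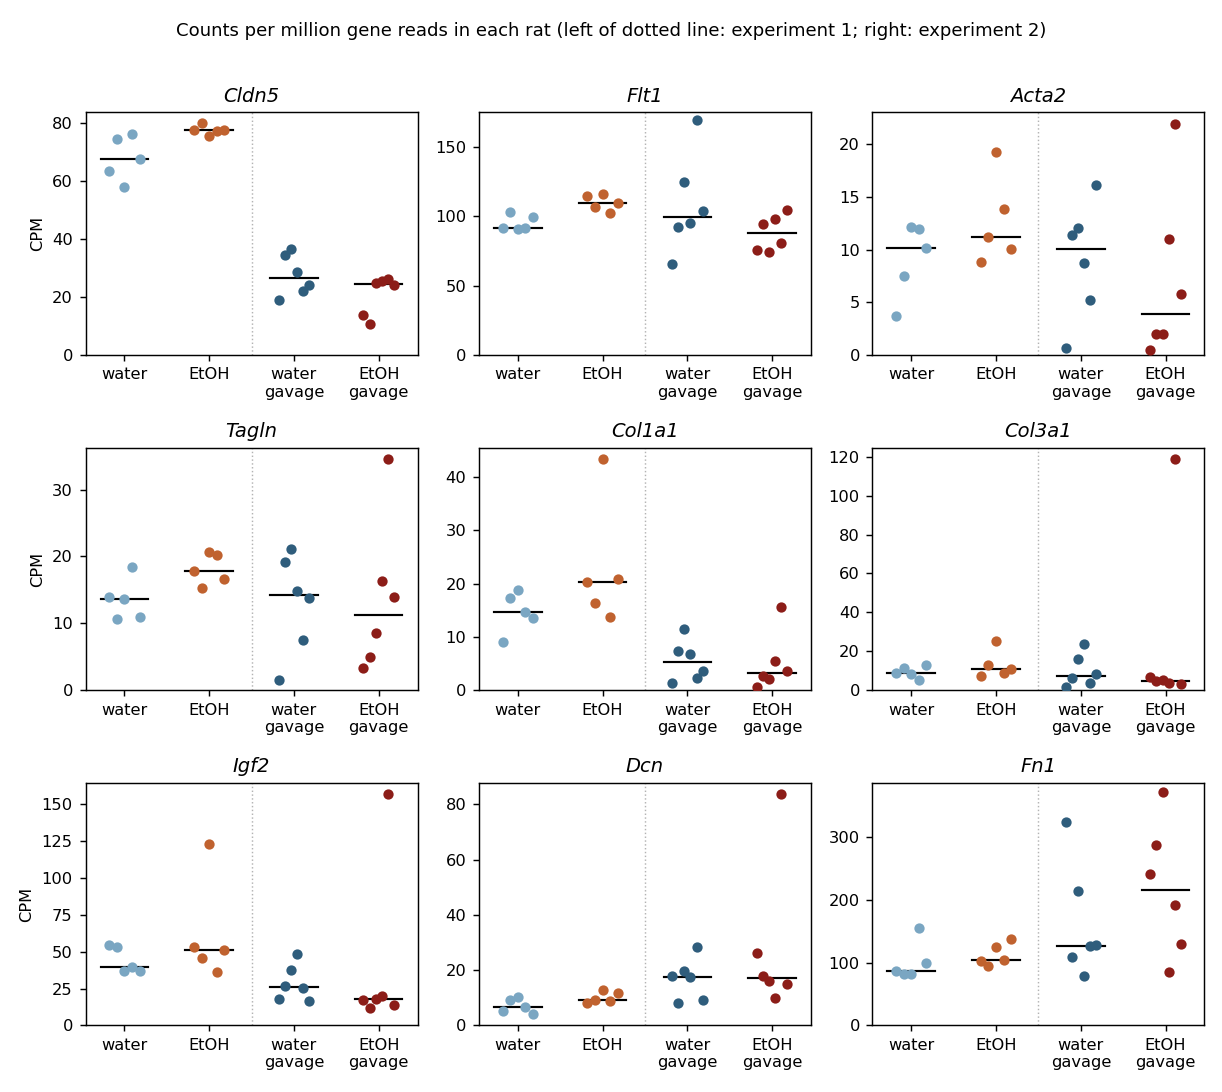
Level in CPM (axis from 0, a separate scale for each gene) of 9 genes of the list in each rat, with a bar at the median of each group, experiment 1 to the left of the dotted line and experiment 2 to the right. Col3a1, Igf2 and Dcn each show 1 EtOH gavage rat far above the rest (118.8, 157.1 and 83.68 CPM), whereas Cldn5, Flt1 and Fn1 do not.

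Other fibroblast genes had the same peak. In EtOH gavage rat 5, Ptgds was at 1499 CPM, and in the other EtOH gavage rats at 23.59 to 157.8 CPM. Aldh1a2 was at 46.78 CPM against at most 5.123 CPM in these rats, the GABA transporter Slc6a13 at 44.97 against at most 7.4 CPM, and the gap junction gene Gjb2 at 48.95 against at most 11.07 CPM. The proteoglycan Bgn was at 95.37 against at most 28.18 CPM and Fmod at 46.06 against at most 8.254 CPM. Water gavage rats reached 729.2 CPM for Ptgds and 23.65 CPM for Aldh1a2. Choroid plexus markers stayed low, with a summed level of 4.681 to 14.57 CPM for the 7 genes in EtOH gavage rats and 6.385 to 12.28 CPM in water gavage rats. Of the 29 fibroblast genes outside the list with reads, 20 were highest in EtOH gavage rat 5, and Omd, Aspn, Mfap4 and Col15a1 were at 0 in all 12. They summed to 2126 CPM in that rat, to 132.9 to 399.8 CPM in the other EtOH gavage rats and to 220.8 to 1054 CPM in water gavage rats. Of the 2126 CPM, Ptgds alone held 1499 CPM. As above, the count of genes highest in that rat has no share of all genes beside it. The part of meningeal or perivascular tissue in the dissected piece was not tested.

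Outside the list, 8 of 13 other endothelial genes were below 0 in experiment 2 (median -0.12), from the tight junction gene Ocln at -0.41 (SE 0.42) to Nostrin at 0.40 (SE 0.49). Of 7 other mural genes 6 were below 0 (median -0.41), from Notch3, a receptor of vascular smooth muscle, at -0.88 (SE 0.59) to the myosin kinase Mylk at 0.16 (SE 0.28). Of 12 other fibroblast genes 6 were below and 6 above 0 (median 0.06), from Col16a1 at -0.84 (SE 0.64) to Slc6a13 at 0.69 (SE 0.62). All 4 tested basement membrane genes were below 0, from Lamb2 at -0.43 (SE 0.42) to Lamc1 at -0.07 (SE 0.16). So were 10 of 11 collagen processing genes, from Plod1 at -0.61 (SE 0.28) to the protease inhibitor Timp3 at 0.09 (SE 0.18). In VEGF, angiopoietin and TGF-beta signalling 5 of 8 were below 0, from Vegfa at -0.47 (SE 0.26) to Tgfb2 at 0.28 (SE 0.19).

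The spread between rats of a group was described by the SD of log2 CPM within groups, whose median was 0.23 for endothelial, 0.25 for mural and 0.51 for matrix genes in experiment 1, beside 0.16 for all genes tested. Without EtOH rat 3 these were 0.20, 0.22 and 0.33 beside 0.16. In experiment 2 they were 0.42, 0.57 and 0.76 beside 0.34, and 0.43, 0.41 and 0.60 beside 0.35 without EtOH gavage rat 5. Col3a1, chosen for its level in experiment 2, had an SD of 1.66 there (rank 23 of 8655) and of 1.03 without EtOH gavage rat 5 (rank 387). Igfbp2 had an SD of 0.81 in experiment 1 (rank 25) and of 0.43 without EtOH rat 3 (rank 233). Flt1 was among the steadiest genes in experiment 1, with an SD of 0.08 and rank 8077, and Tek was the steadiest endothelial gene of experiment 2, with 0.19 and rank 7481.

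In experiment 2 the smooth muscle genes varied together between rats of the same group. Over the 12 rats of experiment 2, after removal of the group means, Acta2 and Tagln had r = 0.96 and rho = 0.89 (permutation test, 100000 permutations, two-sided, p = 0.00011 and 0.00056, FDR = 0.0022 and 0.0112 over 20 relations). Acta2 and Myh11 had r = 0.90 and rho = 0.85 (permutation test, p = 0.00029 and 0.00207, FDR = 0.0029 and 0.0207). The 20 relations include those of Col3a1, and EtOH gavage rat 5 was the highest rat for Acta2, Tagln and Myh11. Leaving out the 2 rats farthest from the median of Acta2, EtOH gavage rat 1 and water gavage rat 1, gave r = 0.91 and 0.87 (permutation test, FDR = 0.0684 and 0.0762). Both of these rats were among those with many reads outside genes, and over the 9 rats without such libraries r was 0.88 and 0.83. Without EtOH gavage rat 5 alone r was 0.95 and 0.87. Without the 3 libraries and EtOH gavage rat 5, over 8 rats, r was 0.78 and 0.68 and rho 0.57 and 0.71. In experiment 1 Acta2 and Myh11 had r = 0.68 and rho = 0.65 (permutation test, n = 10, FDR = 0.0665 and 0.202) and Acta2 and Tagln r = 0.33 and rho = 0.38 (permutation test, FDR = 0.649 and 0.54). With 2 rats left out in the same way, water rat 1 and EtOH rat 3, these r were 0.26 and 0.63.

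For the pericyte gene Rgs5 no relation passed the threshold. Rgs5 and Acta2 had r = 0.53 and rho = 0.43 in experiment 2 (permutation test, p = 0.0662 and 0.17, FDR = 0.165 and 0.425) and r = -0.68 and rho = -0.66 in experiment 1 (permutation test, n = 10, p = 0.0471 and 0.0566, FDR = 0.141 and 0.202). Leaving out the 2 rats farthest from the median of Rgs5 gave 0.22 and -0.76. The endothelial pair Cldn5 and Flt1 had r = 0.11 and rho = 0.20 in experiment 2 and r = 0.30 and rho = 0.38 in experiment 1. Cldn5 and Rgs5 had r = 0.54 and rho = 0.55 in experiment 2 and r = 0.20 and rho = 0.39 in experiment 1. The FDR of these 4 r was at least 0.141 (permutation test). With 2 rats left out r was 0.17 and -0.37 for the first pair and 0.70 and 0.58 for the second.

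Col3a1 varied with Igf2 over the rats of experiment 2 (r = 0.90, rho = 0.66, n = 12). This value rests on the rat behind the choice of Col3a1 and is given without a test. Without EtOH gavage rat 5 r was 0.69, and without that rat and water gavage rat 4, the 2 farthest from the median of Col3a1, it was 0.50. Col3a1 and Col1a1 had r = 0.71, Col3a1 and Dcn 0.63 and Col3a1 and Col4a1 0.14. In experiment 1 Col3a1 and Igf2 had r = 0.66, and 0.06 without EtOH rat 3.

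**Figure D4:**
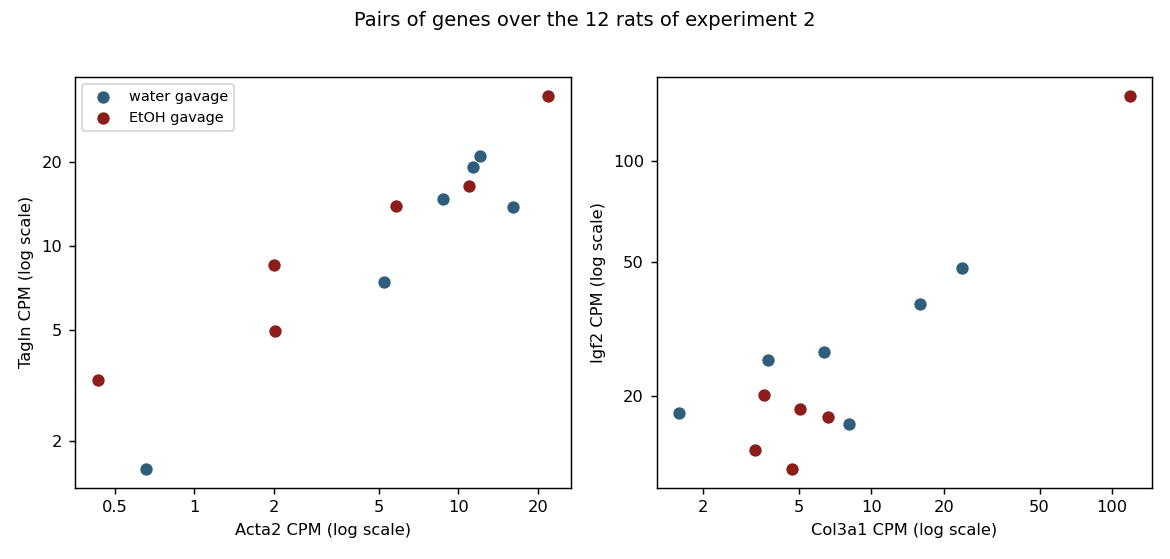
Tagln against Acta2 (left) and Igf2 against Col3a1 (right) in the 12 rats of experiment 2, 1 point per rat, both axes in CPM on log scales, with water gavage rats in blue and EtOH gavage rats in red. Acta2 and Tagln climb together through both groups (r = 0.96 after removal of the group means), while on the right 1 EtOH gavage rat at 118.8 and 157.1 CPM lies far from the other 11.

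Over all pairs of tested genes, the median r after removal of group means was 0.37 within the endothelial genes, 0.55 within the mural genes, 0.48 between these groups and 0.26 within the matrix genes of experiment 2, beside 0 for all genes tested. Without EtOH gavage rat 5 these were 0.36, 0.54, 0.48 and 0.04. In experiment 1 they were 0.09, -0.13, 0.12 and 0.26, and 0.05, -0.03, 0.05 and 0.15 without EtOH rat 3. These rats share libraries and depth across genes, and the values carry no test. The genes outside the list whose pattern over the 12 rats was most like that of Col3a1 were Slc13a3, a carboxylate transporter, with r = 0.913, Tmem9b with 0.904, Fmod with 0.9, Mylk with 0.89 and Slc6a13 with 0.885. All 5 were highest in EtOH gavage rat 5 and, among water gavage rats, in rat 4. Without EtOH gavage rat 5, Slc13a3 was again first, with r = 0.796 over 11 rats. Over the 10 rats of experiment 1 the most similar genes were Tmem2, Ttc9, Tmem170b, Whsc1 and Mllt1, with r between 0.882 and 0.935, and none of them was among the 5 of experiment 2. Without EtOH rat 3 none of these genes was among the 5 most similar.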

How the data were processed

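Per the labels and the methods of the study, reads were aligned to the rn6 rat genome with TopHat2 2.0.13 and counted per gene with HTSeq (versions 0.6.0 and 0.5.3p3 are named), and the authors deposited raw counts, 1 file per rat, without normalization. Reads aligned to several places are not counted, so genes with close copies, such as Abcb1a, can be undercounted. Each file lists 17310 genes, of which 2853 were at 0 in every library, and 5 summary lines, which were left out. The annotation release was not given in the sources used here.

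Each experiment was fitted on its own in edgeR 4.0.16 (R 4.3.3) with TMM factors, estimateDisp, glmQLFit and glmQLFTest, over the 8655 genes whose base mean exceeded the median over listed genes (43.64 and 66.44), with Benjamini-Hochberg adjustment of the P-values across all of them. Log2 CPM used a prior count of 2. The fit was tested on simulated counts. No 2 rats of a group differed by as little as sampling noise (chi-square per degree of freedom at least 2.74 over 50 pairs). Each sample is 1 rat, so the spread is that between animals.

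The members and the lists of related genes were chosen with earlier results of these data known. Every member is named. From each related list, the gene with the lowest P-value in experiment 1 and the genes with the highest and lowest log2 difference in experiment 2 are named, and so are the 5 genes most like Col3a1. Fibroblast genes given for the 2 rats with high matrix levels, and the grouping of 3 rats by their reads outside genes, were chosen after their values were seen. For the 12 planned pairs of genes in 2 experiments, 20 relations could be computed, since Col1a2 had no reads and Col4a2 was not analysed here.

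Alternatives were DESeq2 1.42.0, edgeR with size factors from DESeq2, unfiltered genes, genes with 10 or more counts in all samples, leaving out 1 rat, a block for the replicate number and a covariate for the share of reads outside genes. For correlations, a prior count of 0.5, uncentred values and the removal of 2 rats were tried. Leaving out 3 libraries, and no filter with 1 high rat left out, were added after the data were seen. Promoter windows came from RefSeq (GRCr8) and were used only for their letters, not for coordinates of the counts. Counting error depends on depth, and genes near 1 CPM rest on few reads.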

Additional observations from a re-analysis of the deposited data

Results flagged for a closer look

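Of 106 groups of rats scanned for a rat far from the rest of its group (log2 CPM, gap over range), 6 held one, and chance flags about 1 in 20 groups, or 5.3 here. In EtOH gavage rat 5 there were 3, which were Col3a1 at 118.8 CPM (3.29 to 6.615 CPM in the other 5 rats), Igf2 at 157.1 CPM (12.09 to 20.07) and Tek at 66.56 CPM (49.6 to 54.93). In water gavage rat 1, which had many reads outside genes, there were 2 on the low side, Vwf at 21.92 CPM (69.29 to 128.6) and Emcn at 1.585 CPM (10.51 to 23.29). The last was Vwf in water rat 5 at 90.91 CPM (77.96 to 81.45). The scanned groups share rats across genes, and Col3a1 was chosen by its difference in experiment 2, so the 6 flags cannot be weighed against 5.3. The cause was not tested for any flag.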

How the results depend on the processing

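No gene of the list reached an FDR under 0.05 in experiment 1 under any alternative run. Its count of 5 genes with an unadjusted p under 0.05 was 3 to 7 with 1 rat left out (3 without water rat 1, water rat 3 or EtOH rat 3, 7 without EtOH rat 4) and 3 with no filter and EtOH rat 3 left out. That count was 4 with size factors from DESeq2 and 4 with the covariate for reads outside genes. In experiment 2 the count above 0.5 (2) was 0 to 4 with 1 rat left out (4 without water gavage rat 3 or EtOH gavage rat 4 or 6), 5 with the covariate, 4 without the 3 libraries and 0 with no filter and EtOH gavage rat 5 left out. The count below -0.5 (3) was 2 to 7 (5 without water gavage rat 1 or EtOH gavage rat 4), 0 with the covariate and 12 with no filter and that rat left out. The matrix median (0.41) was -0.28 to 0.58 and -0.30 with no filter and that rat left out, and Col3a1 (1.26) -1.12 to 1.73 and -1.05, and 2.09 with the covariate. For Igf2 the last setting gave -0.79. With 2 rats left out 0 of the 20 relations had an FDR under 0.05, those of Acta2 with Tagln and Myh11 included. 

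The replicate number was not used to pair the rats in the main fit. Rats of the same number had r from -0.13 to 0.14 in experiment 1, with 1 of 5 pairs above 0.1. In experiment 2 r ran from -0.76 to 0.84, with 4 of 6 pairs above 0.1. There, 0 water gavage rats correlated best with the EtOH gavage rat of their own number. Whether the number pairs rats in experiment 2 was not settled by these values. With the number as a replicate block, 5 genes had a p under 0.05 in experiment 1, and in experiment 2 the count above 0.5 was 0, the matrix median -0.19 and Col3a1 -0.19. With 1 rat left out the estimate changed sign for 9 of 26 genes in experiment 1, none of them called, and for 8 of 25 in experiment 2. The cause was not tested except where leaving out a rat shows it. Depth limits the genes near 1 CPM, such as Igfbp2 and Acta2 in experiment 2.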
